A study of Mus musculus with 10 samples.

Results

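Levels of 38 genes were followed across 5 groups of mouse cells: the transcription factor gene Myc and 37 genes whose products make ribosomes or supply that process with polyamines and pyrimidines. They were taken by symbol from a table of 46959 gene entries and all 38 were found. By role they comprise Myc itself, 3 metabolic enzymes (Odc1, Srm, Cad), 2 subunits of RNA polymerase I (Polr1a, Polr1b), 6 nucleolar proteins (Ncl, Npm1, Nolc1, Ddx21, Gnl3, Mybbp1a), 6 core proteins of small nucleolar ribonucleoproteins or snoRNPs (Fbl, Nop56, Nop58, Dkc1, Gar1, Nhp2), 12 factors of the small ribosomal subunit (Rrp9, Pno1, Tsr1, Nop14, Wdr43, Wdr75, Rrp12, Nob1, Imp4, Heatr1, Utp20, Ltv1) and 8 of the large subunit (Nip7, Nop16, Nop2, Rrp1b, Bop1, Ebna1bp2, Pes1, Wdr12). All 38 passed the filter on low counts in every comparison.

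The series asked how SAHA and the loss of enhancers of the immunoglobulin heavy chain locus bear on transcription there, and RNA was sequenced from 2 libraries per group. The LPS_IL4_SAHA and LPS_IL4 groups were CD43-negative splenocytes labelled wt and strain 129, cultured for 48 h with 5 µg/ml lipopolysaccharide (LPS, a bacterial activator of B cells) and 20 ng/ml interleukin 4 (IL4). LPS_IL4_SAHA also received SAHA (vorinostat, an inhibitor of histone deacetylases), given as 200 nM in the sample descriptions but as 200 ng/ml in the treatment protocol, so the dose is uncertain. The culture protocol names KOKI and BLACK-6 mice as the source of the splenocytes, so their strain is also uncertain. The 2KO, deltaEmu and RAG2_deficient groups were cells labelled femoral B cells of C57BL6 background, lysed without culture. The label 2KO is not spelled out, and the design text names mice deficient for 5′Eµ and 3′RR, enhancers of that locus. The deltaEmu label names loss of the Eµ enhancer alone, and RAG2_deficient names loss of the recombinase gene Rag2. Mice were 8 to 10 weeks old, and the femoral cells of unmodified mice were not among the samples analysed. Each library is a pool, and no label says whether the pools of a group were independent, so the p-values reflect how far the pools differ, which may be technical.

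Myc is a transcription factor that binds DNA as a partner of Max, often at the sequence called an E-box, and its known targets include many genes of ribosome production. Ribosomes are built in the nucleolus: RNA polymerase I transcribes the ribosomal RNA precursor, snoRNPs guide its chemical modification, and assembly factors fold and cut it into the small and large subunits. B cells activated by LPS are known to enlarge their nucleoli and to divide, whereas early B cells of the marrow alternate between division and rearrangement of their antigen receptor genes.

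Promoter windows from RefSeq (GRCm38.p6, 250 bases before to 50 after the gene start) were matched for 32 members, and those of Myc, Fbl, Srm, Rrp12, Bop1 and Npm1 were not. The E-box CACGTG, which reads the same on both strands, was found in the windows of 9 of the 32 (28.1%), namely Imp4, Ltv1, Mybbp1a, Nop2, Pes1, Pno1, Tsr1, Utp20 and Wdr43. Among all genes of that table the share was 8.09%, or 2187 of 27025. A match describes the letters of the window and is not evidence of binding. The 5 windows with the highest mean level of their gene are shown as examples of assembly genes whose levels are compared between the tissues, 5′ to 3′, with the E-box in capitals. They lie at chr17:71615965-71616264 (forward strand) for Wdr43, chr11:72441077-72441376 (forward strand) for Mybbp1a, chr11:3963725-3964024 (forward strand) for Pes1, chr11:17211540-17211839 (reverse strand) for Pno1 and chr6:125131633-125131932 (forward strand) for Nop2.
Wdr43: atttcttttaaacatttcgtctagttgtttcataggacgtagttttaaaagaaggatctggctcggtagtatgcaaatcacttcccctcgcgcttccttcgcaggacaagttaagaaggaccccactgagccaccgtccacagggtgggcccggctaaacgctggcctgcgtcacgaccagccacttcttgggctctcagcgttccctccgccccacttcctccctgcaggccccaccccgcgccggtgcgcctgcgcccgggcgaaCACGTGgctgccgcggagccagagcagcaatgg
Mybbp1a: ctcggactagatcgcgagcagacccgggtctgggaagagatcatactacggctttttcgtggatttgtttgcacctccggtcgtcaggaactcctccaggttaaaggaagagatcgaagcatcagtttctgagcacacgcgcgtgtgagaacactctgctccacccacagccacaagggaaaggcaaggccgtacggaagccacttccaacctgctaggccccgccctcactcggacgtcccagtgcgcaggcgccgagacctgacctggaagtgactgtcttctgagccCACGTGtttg
Pes1: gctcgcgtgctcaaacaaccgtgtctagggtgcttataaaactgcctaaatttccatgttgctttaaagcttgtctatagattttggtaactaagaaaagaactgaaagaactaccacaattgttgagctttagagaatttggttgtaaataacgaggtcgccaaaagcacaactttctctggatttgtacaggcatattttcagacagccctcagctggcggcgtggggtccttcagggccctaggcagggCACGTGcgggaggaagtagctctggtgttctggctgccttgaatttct
Pno1: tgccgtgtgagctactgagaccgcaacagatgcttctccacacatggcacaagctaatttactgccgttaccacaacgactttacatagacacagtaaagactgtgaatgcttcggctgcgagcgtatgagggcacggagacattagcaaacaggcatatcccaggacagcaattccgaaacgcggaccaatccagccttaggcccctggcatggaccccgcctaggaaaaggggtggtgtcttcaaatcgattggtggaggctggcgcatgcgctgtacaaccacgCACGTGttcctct
Nop2: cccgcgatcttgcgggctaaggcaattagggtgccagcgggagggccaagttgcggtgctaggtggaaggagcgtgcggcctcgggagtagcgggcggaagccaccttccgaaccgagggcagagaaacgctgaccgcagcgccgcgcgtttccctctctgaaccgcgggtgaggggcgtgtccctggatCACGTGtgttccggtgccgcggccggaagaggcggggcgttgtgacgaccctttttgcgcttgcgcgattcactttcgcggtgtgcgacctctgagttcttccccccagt
In 4 of them the E-box starts just after the gene start, at base 18 in Wdr43, 41 in Mybbp1a, 3 in Pes1 and 38 in Pno1, counted from 1 at the first transcribed base. In Nop2 it starts at base -60, upstream of the start.

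Each column of counts was assigned to its sample by the sequencing index that ends the sample's description, which was chosen over the titles with marker levels already known. By the titles 8 of the 10 columns would belong to other samples, and for all 4 spleen samples the titles put SAHA on the opposite samples. If the title numbering is right, none of the comparisons holds. Total counts were 17710154 to 25544275 per library. Levels are given as CPM, a gene's counts relative to the library total, scaled with trimmed-mean (TMM) factors over the 10 libraries. With this assignment Rag1, of the antigen receptor recombinase, was at 0 to 0.0418 CPM in the spleen libraries and at 141 to 919 CPM in the femoral ones. Rag2 had 21.7 and 23.8 CPM in RAG2_deficient, against 13.3 to 20.4 CPM in 2KO and deltaEmu. No label gives the extent of the Rag2 deletion, so these counts do not check the genotype. The femoral libraries were not pure B cells: the summed level of 10 neutrophil markers was 6734 to 20578 CPM, of 9 erythroid markers 2455 to 15424 CPM and of 8 stromal markers 1219 to 8220 CPM there, against 0.315 to 0.501, 1.93 to 5.43 and 0.0401 to 0.161 CPM in spleen. The sum of 12 mature B cell markers was 3340.2 to 4116 CPM in spleen, against 233 to 584 CPM in femoral libraries. That of 10 pro-B markers was 362 to 871 CPM in spleen and 712 to 3065 CPM in femoral libraries. Most of the spleen sum was Pax5, with a mean of 404 CPM there against 97.2 CPM in femoral libraries. Of the 10 pro-B markers 8 were called lower in spleen and 1, Pax5, higher, and 3 to 5 had no count in a spleen library. Xist, a female-specific RNA, and the Y-linked Ddx3y were both present in 2KO and deltaEmu, while RAG2_deficient held Xist with 0 to 0.237 CPM of Ddx3y, and spleen Ddx3y with at most 0.201 CPM of Xist.

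Myc and the 37 other genes were all higher in the activated splenic libraries than in the femoral ones. Every one was called (adjusted p below 0.05, edgeR's quasi-likelihood test with Benjamini-Hochberg adjustment over all genes tested), against 30.6% of the 17483 genes tested that were called higher, 40.9% lower and 71.4% in either direction. The median change was 1.84 on the log2 scale, a 3.57-fold difference, and single changes ran from 1.21 to 2.59. For all genes tested the median was -0.21, so the typical gene was slightly lower in spleen on this scale. All 38 also had their 4 spleen libraries above the 6 femoral ones with no overlap, which 23.2% of genes did (32.3% lay below). Adjusted p-values of the 38 lay between 1.84e-07 and 0.00153. Tissue, culture, stimulation, strain, sex and the share of B cells all differ between these libraries and cannot be told apart. In such bulk samples more cells of a type and more RNA per cell cannot be told apart either.

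**Figure D1:**
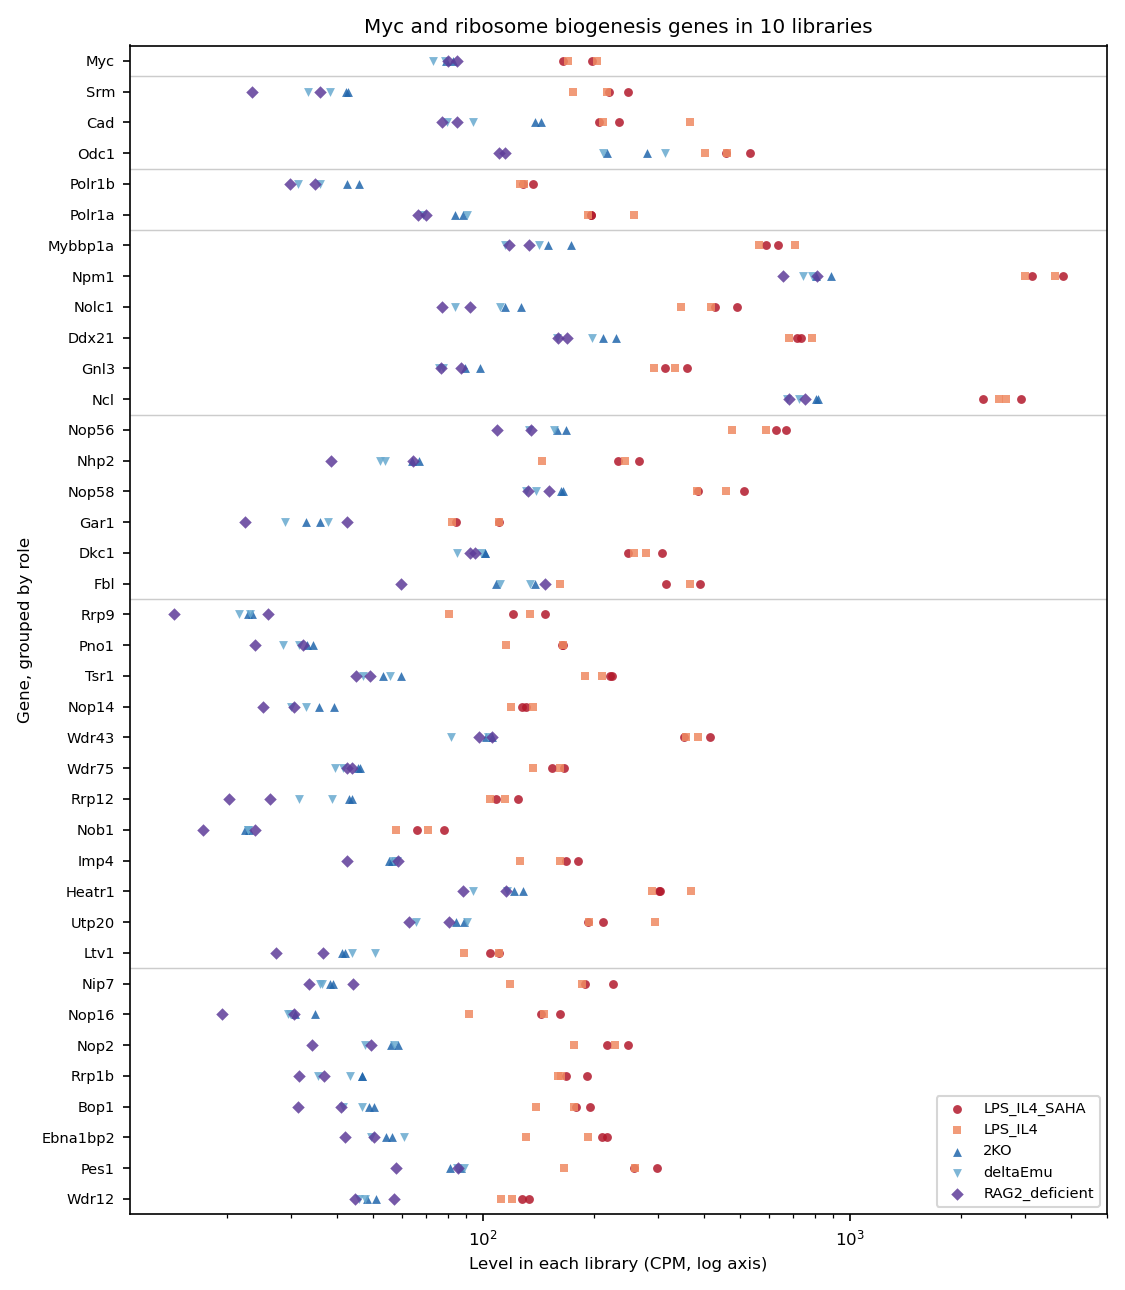
Level of each of the 38 genes (CPM, log axis) in each of the 10 libraries, with genes grouped by role and 1 symbol per library. For every gene the red and orange symbols of the 4 activated spleen libraries lie to the right of the 6 femoral symbols.

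Myc (proto-oncogene, chr15:61985341-61990374, forward strand) had 165 and 198 CPM in LPS_IL4_SAHA, 171 and 204 in LPS_IL4, 82.7 and 79.3 in 2KO, 78.7 and 73.1 in deltaEmu and 84.6 and 80.3 in RAG2_deficient. Its 4 spleen values lay above all femoral values, and the 6 femoral values were close together, between 73.1 and 84.6 CPM. The difference between the tissues was 1.21 ± 0.11 on the log2 scale (± SE), 2.32-fold (adjusted p = 8.18e-06), which was the smallest of the 38. TPM is a gene's share of a library after scaling by its summed exon length. By mean TPM Myc ranked 15 of the 38, at 79.0 to 158 TPM in spleen and 30.6 to 54.9 TPM in femoral libraries.

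The 3 metabolic enzymes differed widely: Srm had the largest change of the 38, while Odc1 and Cad were among the small ones. Srm (spermidine synthase, chr4:148591503-148594993, forward strand) had 221 and 249 CPM in LPS_IL4_SAHA, 217 and 176 in LPS_IL4, 42.4 and 42.8 in 2KO, 38.4 and 33.4 in deltaEmu and 36.0 and 23.4 in RAG2_deficient. This was the largest difference of the 38, at 2.59 ± 0.15 on the log2 scale or 6.02-fold (adjusted p = 2.62e-07). Odc1 (ornithine decarboxylase, which makes the first polyamine, chr12:17544873-17551502, forward strand) had 459 and 534 CPM in LPS_IL4_SAHA, 462 and 403 in LPS_IL4, 218 and 279 in 2KO, 313 and 212 in deltaEmu and 115 and 110.1 in RAG2_deficient. The spleen libraries lay above the femoral ones, but the femoral groups differed among themselves, and the change of 1.25 ± 0.15 was the second smallest (adjusted p = 5.31e-05). Cad, a multifunctional enzyme of the first steps of pyrimidine synthesis (chr5:31054780-31078479, forward strand), had 207 and 234 CPM in LPS_IL4_SAHA, 212 and 366 in LPS_IL4, 138 and 144 in 2KO, 93.8 and 79.6 in deltaEmu and 77.1 and 84.8 in RAG2_deficient. Its change was 1.34 ± 0.16 (adjusted p = 4.56e-05), and LPS_IL4 replicate 6_et_8 stood well above the other 3 spleen libraries.

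Among the 12 small-subunit factors the median change was 1.81 and the range 1.38 to 2.46. Rrp9, a protein of the U3 snoRNP (chr9:106475963-106485424, forward strand), had 121 and 148 CPM in LPS_IL4_SAHA, 134 and 80.8 in LPS_IL4, 23.5 and 22.8 in 2KO, 21.7 and 23.2 in deltaEmu and 25.9 and 14.4 in RAG2_deficient. Its change of 2.46 ± 0.19 (5.50-fold, adjusted p = 2.41e-06) was the second largest of the 38. Pno1, a partner of the nuclease Nob1 on the immature small subunit (chr11:17203198-17211568, reverse strand), had 164 and 165 CPM in LPS_IL4_SAHA, 165 and 115 in LPS_IL4, 34.3 and 33.2 in 2KO, 31.6 and 28.5 in deltaEmu and 32.3 and 23.8 in RAG2_deficient. It changed by 2.31 ± 0.14 (4.97-fold, adjusted p = 3.74e-07), the third largest. In both genes LPS_IL4 replicate 6_et_8 was the lowest spleen library and RAG2_deficient replicate 3 the lowest femoral one. Nob1, the nuclease that makes the mature end of the small-subunit RNA, lay at 57.7 to 78.0 CPM in activated spleen, against 17.2 to 23.9 CPM in femoral libraries, a difference of 1.63. Nop14 and the large scaffold protein Utp20 belong to the early small-subunit complex, the processome. Nop14 lay at 119 to 137 CPM in activated spleen, against 25.1 to 39.3 CPM in femoral libraries (2.01), and Utp20 at 194 to 294 CPM in activated spleen, against 62.7 to 90.3 CPM in femoral libraries (1.50).

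Heatr1, Wdr43 and Wdr75 form part of the subcomplex that links early processing to transcription of the RNA precursor. Wdr43 lay at 353 to 414 CPM in activated spleen, against 81.9 to 106 CPM in femoral libraries (1.93), Wdr75 at 137 to 166 against 39.5 to 46.2 CPM (1.84), and Heatr1 at 288 to 368 against 88.3 to 128 CPM (1.51). Imp4, a protein bound to the U3 RNA complex, lay at 126 to 182 CPM in activated spleen, against 42.6 to 58.7 CPM in femoral libraries (1.54). Factors of later steps were also higher in spleen. Tsr1, a factor of the cytoplasmic precursor, changed by 2.03 ± 0.11, and Rrp12, known in yeast for export of both subunits, by 1.78 ± 0.12. Ltv1, another factor of the exported precursor, had the smallest change of this role, 1.38 ± 0.12.

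The 8 large-subunit factors had a median change of 2.05. Pes1, Bop1 and Wdr12 work as one complex (PeBoW) in large-subunit processing, and their changes were unequal. Bop1 lay at 139 to 195 CPM in activated spleen, against 31.2 to 50.4 CPM in femoral libraries (2.00 ± 0.13). Pes1 lay at 166 to 298 CPM in activated spleen, against 58.0 to 88.6 CPM in femoral libraries (1.59 ± 0.16). Wdr12 (chr1:60069785-60098645, reverse strand) had 133 and 128 CPM in LPS_IL4_SAHA, 120.1 and 111 in LPS_IL4, 48.4 and 51.0 in 2KO, 47.6 and 45.9 in deltaEmu and 44.8 and 57.1 in RAG2_deficient; its change of 1.32 ± 0.11 (adjusted p = 3.12e-06) was the third smallest of the 38. Differences between members of the complex were not tested. The methyltransferase gene Nop2 changed by 2.12 ± 0.14, and the assembly factors Nip7 by 2.23 ± 0.15, Nop16 by 2.22 ± 0.17, Rrp1b by 2.10 ± 0.11 and Ebna1bp2 by 1.84 ± 0.14.

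The 6 nucleolar proteins changed by a median of 2.02 with a narrow range, 1.81 to 2.18. Npm1 (nucleophosmin, an abundant nucleolar chaperone) lay at 2994 to 3787 CPM in activated spleen, against 656 to 884 CPM in femoral libraries, a change of 2.11 ± 0.17. Ncl (nucleolin, a nucleolar RNA-binding protein) lay at 2295 to 2909 CPM in activated spleen, against 672 to 816 CPM in femoral libraries, a change of 1.81 ± 0.15. The pair made up 34.7% to 42.0% of the summed CPM of the 38 genes in each library. Near-identical pseudogene copies of Npm1 are known, and how reads with several matches were counted is not given, which leaves its count uncertain. Mybbp1a, a Myb-binding nucleolar protein, changed by 2.18 ± 0.14, the snoRNP chaperone Nolc1 by 2.07 ± 0.14, the helicase Ddx21 by 1.97 ± 0.13 and the GTPase Gnl3 (nucleostemin) by 1.95 ± 0.12.

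The 6 snoRNP proteins had a median change of 1.55. In the box C/D particles, which guide methylation, the scaffold proteins Nop56 and Nop58 changed by 2.04 ± 0.13 and 1.57 ± 0.13 and the methyltransferase Fbl (fibrillarin) by 1.39 ± 0.28. Fbl had the largest standard error and the largest adjusted p (0.00153) of the 38. Its values were 314 and 390.5 CPM in LPS_IL4_SAHA, 365 and 162 in LPS_IL4, 139 and 108 in 2KO, 111 and 134 in deltaEmu and 147 and 59.7 in RAG2_deficient. The 2 libraries of LPS_IL4 and of RAG2_deficient differed widely in this gene, and LPS_IL4 replicate 6_et_8 lay just above the highest femoral library. In the box H/ACA particles, which guide pseudouridylation, the pseudouridine synthase Dkc1 changed by 1.51 ± 0.12 and its partners Gar1 and Nhp2 by 1.53 ± 0.19 and 1.96 ± 0.18. The RNA polymerase I subunits changed by 1.44 ± 0.13 for Polr1a, the largest subunit, and 1.83 ± 0.10 for Polr1b.

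**Figure D2:**
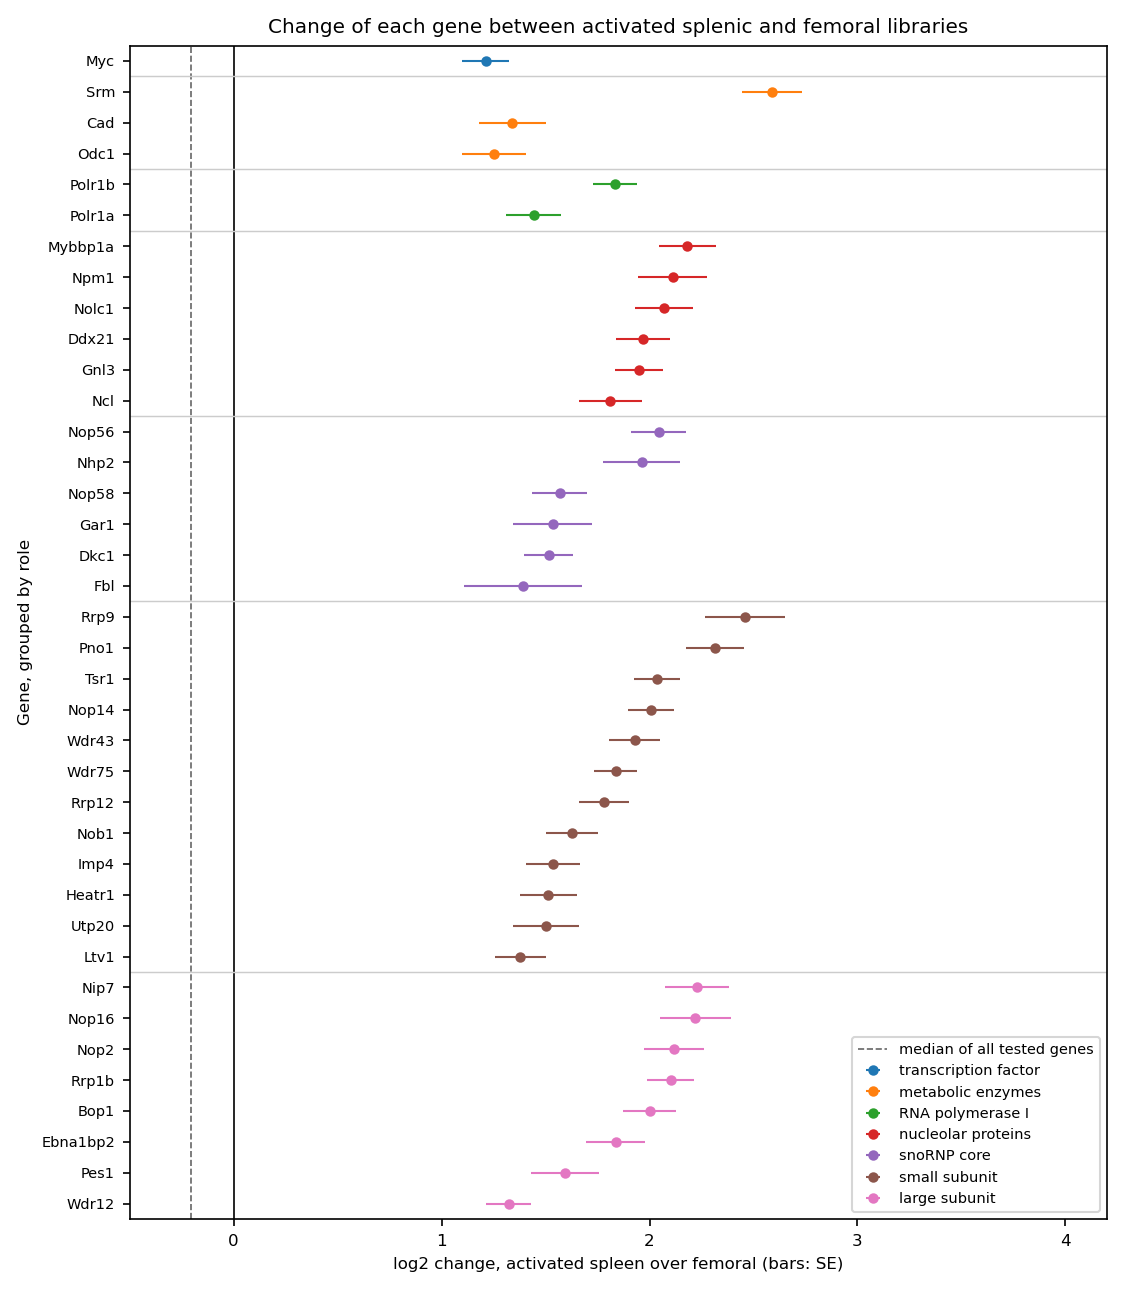
Change of each of the 38 genes between activated spleen and femoral libraries on the log2 scale, with bars for the standard error, colours for roles and a dashed line for the median of all tested genes. All 38 points lie between 1.21 and 2.59, to the right of zero and of the dashed line at -0.21.

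The result did not rest on the SAHA libraries or on a single library. With LPS_IL4 alone over the femoral groups the median was 1.80 and 38 genes were called, and with each library left out in turn the median was 1.79 to 2.01 and the count stayed at 38. Members with the E-box in their window had a median change of 1.93 (n = 9), and those with a window but without it 1.84 (n = 23). Exons of 16 of the 38 genes overlap those of another gene in GENCODE vM21, in 14 cases on the other strand (Wdr12, Rrp9, Pno1, Mybbp1a and Pes1 among them), and the strand setting of the counting is not given, so their counts may hold reads of the neighbour.

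Ranked by TPM, Npm1 was the highest of the 38, with a mean over the 10 libraries of 1030.3 TPM. Fbl followed with 239, Ncl with 222 and Odc1 with 185 TPM. The lowest were Wdr12 with 10.0, Imp4 with 16.8, Polr1a with 17.2 and Nob1 with 17.3 TPM. Npm1 stood apart, at 1481 to 2403 TPM in spleen and 306 to 529.9 TPM in femoral libraries, whereas the ranges of Fbl and Ncl overlapped in both tissues. The 3 lowest above Wdr12 also overlapped. These ranks depend on the summed exon length, which counts all annotated exons of a gene and is not the length of 1 transcript. It was 2665 bases for Npm1, 10188 for Ncl, 11955 for Wdr12 and 8553 for Imp4.

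The other genes of the same pathways were compared from lists chosen with results of these data already known. Other factors of the small-subunit processome were all higher in spleen (32 of 32 tested, median log2 change 1.42), with Cirh1a at 129.7 ± 14.5 CPM in spleen and 31.0 ± 3.84 CPM in femoral libraries (mean ± SD, n = 4 and 6) and Utp15 changed by 1.69 ± 0.10. All 38 of 38 other large-subunit factors were higher (median 1.39), Ddx18, a helicase, by 1.88 ± 0.10 and Noc3l by 1.78 ± 0.11. So were 8 of 8 snoRNP partners (median 1.35; the assembly factors Nufip1 1.24 ± 0.10 and Znhit6 1.70 ± 0.15) and 12 of 13 genes of the polymerase I machinery (median 1.05; the subunit Polr1e 2.02 ± 0.13 and the factor Taf1d 1.57 ± 0.12). Of 17 nucleotide synthesis enzymes 15 were higher and 1 lower (median 1.54). Mthfd2, of mitochondrial folate metabolism, was higher by 2.49 ± 0.15, Ctps, which makes CTP, by 1.77 ± 0.10, and Impdh1, of guanine nucleotide synthesis, changed by -1.51 ± 0.14. Of 17 further reported Myc targets 17 were higher (median 1.30), lactate dehydrogenase Ldha by 2.72 ± 0.16 and the chaperonin Hspd1 by 2.26 ± 0.14.

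Most genes of Myc's own network, and several polyamine enzymes, were lower in spleen or were not called. Of all genes tested 30.6% were called higher and 40.9% lower, shares near those of the polyamine enzymes. In the Max network, which holds the partner Max and the competing Mxd proteins, 1 of 11 genes was higher and 8 were lower (median -1.24). Max was at 89.3 ± 8.52 CPM in spleen and 59.8 ± 8.92 CPM in femoral libraries (mean ± SD, n = 4 and 6; log2 change 0.58 ± 0.11, adjusted p = 0.0011). Mxd1, a Max-binding repressor, was at 7.03 ± 1.54 CPM in spleen and 145 ± 42.4 CPM in femoral libraries (-4.34 ± 0.20), and Mycl, a relative of Myc, changed by -5.10 ± 0.26. Of 7 polyamine enzymes 2 were higher (Sms, spermine synthase, 1.64 ± 0.11, and Amd1, which supplies the aminopropyl group, 0.55 ± 0.11) and 3 were lower. The lower ones included the breakdown enzymes Smox (-4.47 ± 0.21) and Sat1 (-2.73 ± 0.22). Markers of neutrophils (10 of 10), erythroid cells (9 of 9), monocytes (8 of 8) and stromal cells (8 of 8) were also lower in spleen, where 3 to 7 of the 10 neutrophil and 5 to 7 of the 8 stromal markers had no count, and their part in these decreases was not tested.

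Proliferation genes separated the tissues less than the 38 genes did in summed level, a difference that was not tested. The 38 genes summed to 13856 to 15934 CPM in spleen and 3534 to 4652 CPM in femoral libraries, a ratio of means of 3.60. For 20 proliferation genes the sums were 6494 to 6718 CPM in spleen and 4814 to 6998 CPM in femoral libraries, which overlap, with a ratio of 1.18. Without Mki67, the most abundant of them in femoral libraries and left out after its values were seen, the sums were 5385 to 6190.5 CPM in spleen and 3219 to 4519 CPM in femoral libraries, which do not overlap, with a ratio of 1.53. The median log2 change of the 20 genes was 0.56. Of these 20 genes 16 were called higher and 2 lower (12 to 17 and 1 to 3 over the alternatives): the replication helicase genes Mcm3 and Mcm4 changed by 1.21 ± 0.14 and 0.89 ± 0.12, the mitotic regulator Foxm1 by -0.82 ± 0.16 and the proliferation marker Mki67 by -1.32 ± 0.34. Mki67 was not called with LPS_IL4 alone over the femoral groups (adjusted p = 0.0589).

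**Figure D3:**
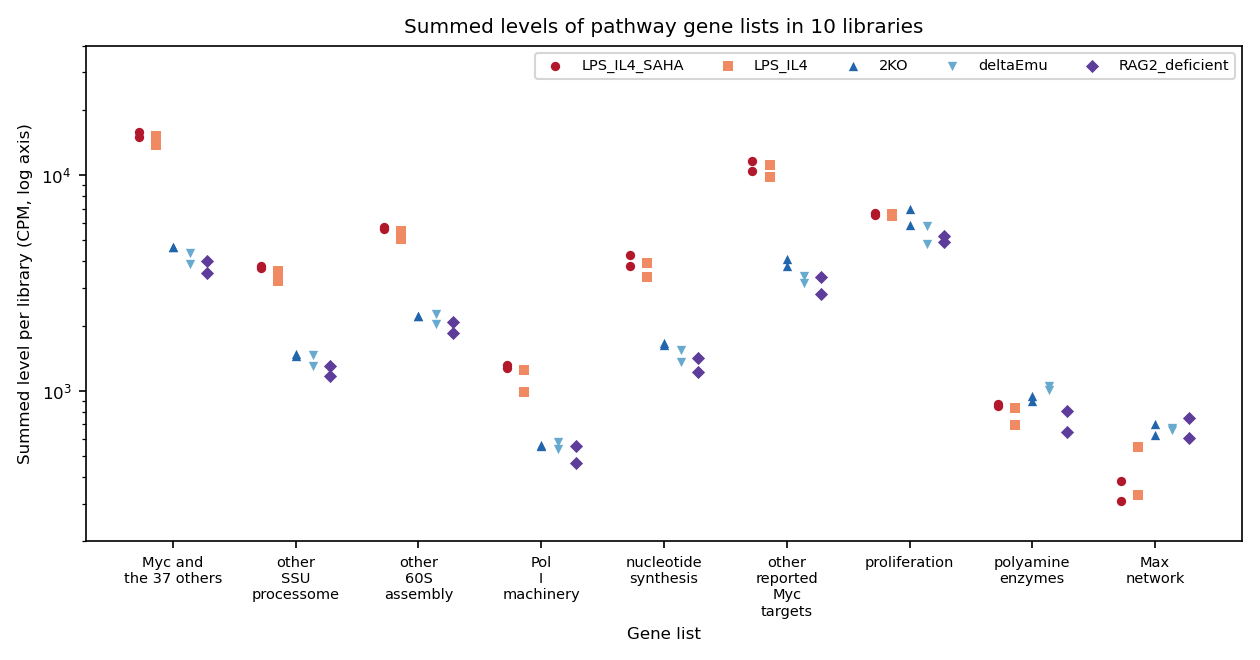
Summed level (CPM, log axis) of 9 gene lists in each of the 10 libraries, 1 symbol per library and 1 column of symbols per group. The sums of the 38 genes, of the other assembly and polymerase I lists, of nucleotide synthesis and of the other reported Myc targets are separate between spleen and femoral libraries, while those of proliferation genes (6494 to 6718 against 4814 to 6998 CPM) and polyamine enzymes overlap.

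Among the femoral groups the median changes of the 38 genes were 0.08 to 0.24 on the log2 scale, and few genes were called. The comparisons share libraries: each group enters 2 of them, and the 3 groups share 1 estimate of spread. In 2KO over RAG2_deficient, 3 of 38 genes were called and all 3 were higher in 2KO, Odc1, Cad and Rrp12. Of all 16538 tested genes 1.26% passed as higher and 3.05% as lower (4.31% in either direction). At an unadjusted p under 0.05 there were 9 of the 38, against 19.2% of all genes. The median change of the 38 was 0.24, against -0.00067 for all genes. Changes were positive for 34 of 38, against 49.6% of all genes. Without overlap between the libraries, 26 of 38 were higher in 2KO (68.4%) and 0 were lower, against 25.5% and 21.7% of all genes. Summed, the 38 genes reached 4625 to 4652 CPM in 2KO, 3856 to 4357 CPM in deltaEmu and 3534 to 4008 CPM in RAG2_deficient.

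Odc1 had 218 and 279 CPM in 2KO, 313 and 212 CPM in deltaEmu and 115 and 110.1 CPM in RAG2_deficient. The RAG2_deficient libraries were the lowest and lay close together, while 2KO and deltaEmu overlapped. In 2KO it was 2.17-fold higher than in RAG2_deficient (log2 1.11 ± 0.24, adjusted p = 0.0451), and in deltaEmu 2.27-fold higher (log2 1.18 ± 0.24, adjusted p = 0.0216). Cad had 138 and 144 CPM in 2KO, 93.8 and 79.6 CPM in deltaEmu and 77.1 and 84.8 CPM in RAG2_deficient. Here the 2KO libraries stood above all 4 others, with a change of 0.77 ± 0.17 over RAG2_deficient (1.71-fold, adjusted p = 0.0454). Rrp12 (chr19:41862852-41896153, reverse strand) had 43.8 and 43.0 CPM in 2KO, 38.8 and 31.6 CPM in deltaEmu and 26.3 and 20.2 CPM in RAG2_deficient. The 3 groups did not overlap in this gene, 2KO being highest and RAG2_deficient lowest, and 2KO over RAG2_deficient was 0.87 ± 0.18 (1.83-fold, adjusted p = 0.0438).

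These 3 calls were near the threshold in the main fit and were lost in several fits with 1 library left out. DESeq2's Wald test gave an adjusted p of 0.00053 for Odc1, 0.0035 for Cad and 0.0057 for Rrp12. With no filter on low counts edgeR's quasi-likelihood test gave 0.00015, 0.0092 and 0.0014. In 1 fit of all 10 libraries it gave 0.0416, 0.131 and 0.0407. All 3 calls were lost without 2KO replicate 1, 2KO replicate 3, deltaEmu replicate 5 or deltaEmu replicate 7. The deltaEmu libraries are not compared here but share in the estimate of spread. Without deltaEmu replicate 5 the changes were 1.12 for Odc1, 0.78 for Cad and 0.88 for Rrp12. Without RAG2_deficient replicate 3 the calls of Odc1 and Rrp12 were lost. Without RAG2_deficient replicate 2 the median change of the 38 was 0.37, against 0.034 for all genes. It was 0.15 without RAG2_deficient replicate 3, against 0.0014 for all genes. Without 2KO replicate 3 the adjusted p was 0.344 for Odc1, 0.338 for Cad and 0.24 for Rrp12, and the changes kept their direction at 0.94, 0.76 and 0.90. Myc itself had 82.7 and 79.3 CPM in 2KO, against 84.6 and 80.3 CPM in RAG2_deficient, which overlap, and its change was -0.05 ± 0.15 (adjusted p = 0.896). The other 34 genes had changes of -0.07 to 0.49 with adjusted p of 0.193 to 1.

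Within the related lists few genes were called in 2KO over RAG2_deficient. Smox, a spermine oxidase, had 44.3 ± 11.5 CPM in 2KO and 19.7 ± 5.78 CPM in RAG2_deficient (mean ± SD, n = 2 each; 1.14 ± 0.25, adjusted p = 0.0493), and the amino acid transporter gene Slc7a5, a reported Myc target, had 70.8 ± 18.8 CPM in 2KO and 31.3 ± 1.46 CPM in RAG2_deficient (1.15 ± 0.22). Mxd4, a Max-binding repressor, had 61.0 ± 10.9 CPM in 2KO and 122 ± 6.92 CPM in RAG2_deficient (-1.03 ± 0.22). No gene was called among 32 small-subunit, 38 large-subunit, 8 snoRNP, 13 polymerase I, 17 nucleotide and 20 proliferation genes, whose medians were 0.20, 0.19, 0.21, 0.07, 0.35 and 0.38. The calls of Smox, Slc7a5 and Mxd4 ended without 2KO replicate 3 (adjusted p = 0.35 for Smox, 0.247 for Slc7a5 and 0.366 for Mxd4), deltaEmu replicate 5 (0.126, 0.0794 and 0.0902) or deltaEmu replicate 7 (0.125, 0.0797 and 0.0873). Without RAG2_deficient replicate 3 Smox (0.076) and Slc7a5 (0.0563) were not called, without 2KO replicate 1 Smox (0.0529) and Mxd4 (0.0991) were not, and in 1 fit of all 10 libraries Slc7a5 (0.0548) and Mxd4 (0.0503) were not. Without RAG2_deficient replicate 2 each of these lists held genes called higher in 2KO, in a fit that also called far more of all genes. Markers of other cells moved between the same groups. Erythroid markers summed to 10427 to 15424 CPM in 2KO and 3099 to 5708 CPM in RAG2_deficient (4 of 9 called higher), stromal markers to 1219 to 1710.3 and 7220 to 8220 CPM (6 of 8 lower), and pro-B markers to 712 to 1087 and 2640.1 to 3065 CPM (6 of 10 lower). Proliferation genes summed to 5867 to 6998 CPM in 2KO and 4900 to 5214 CPM in RAG2_deficient. The part of these differences, and of sex, in the changes of Odc1, Cad and Rrp12 was not tested.

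In deltaEmu over RAG2_deficient, Odc1 alone of the 38 was called, higher in deltaEmu, against 4.42% of all genes called higher and 5.39% lower (9.81% in either direction). At an unadjusted p under 0.05 there were 3 of the 38, against 25.6% of all genes. The call ended without deltaEmu replicate 5, at a change of 0.90, or deltaEmu replicate 7, at 1.43. Without RAG2_deficient replicate 2 the median change of the 38 was 0.23, against 0.033 for all genes. It was -0.025 without RAG2_deficient replicate 3, against -0.0042 for all genes. In the main fit the median change was 0.08, against -0.012 for all genes. Changes were positive for 28 of 38, against 48.9% of all genes. Without overlap 4 were higher (Odc1, Rrp12, Ltv1 and Bop1), against 28.3% of all genes, and 2 lower, against 24.4%. Myc, 1 of the lower pair, had 78.7 and 73.1 CPM in deltaEmu, against 84.6 and 80.3 CPM in RAG2_deficient. The groups did not overlap, but the change of -0.16 ± 0.15 was not called (adjusted p = 0.549). Rrp12 (0.56 ± 0.18, adjusted p = 0.104) and Ltv1 (0.53 ± 0.18, adjusted p = 0.112) were not called. In the related lists Sat1, which acetylates polyamines, was higher at 375 ± 49.4 CPM in deltaEmu and 139.7 ± 51.8 CPM in RAG2_deficient (mean ± SD, n = 2 each; 1.39 ± 0.28), and the cyclin gene Ccnd2 was lower (-0.70 ± 0.17). Both calls ended without deltaEmu replicate 5 (adjusted p = 0.114 and 0.296), without deltaEmu replicate 7 (0.148 and 0.25), and that of Ccnd2 also without 2KO replicate 1 (0.106) or 2KO replicate 3 (0.106) and in 1 fit of all 10 libraries (0.193). Markers of other cells moved between these groups too. Neutrophil markers summed to 18022 to 20578 CPM in deltaEmu and 6734 to 7805 CPM in RAG2_deficient (6 of 10 called higher), and stromal markers to 2367 to 2461 CPM in deltaEmu and 7220 to 8220 CPM in RAG2_deficient (8 of 8 lower). Pro-B markers summed to 798 to 1114 CPM in deltaEmu and 2640.1 to 3065 CPM in RAG2_deficient (6 of 10 lower). Called higher in deltaEmu were 5 of 12 mature B, 3 of 8 monocyte, 3 of 8 plasma cell and 3 of 8 T and NK markers, and called lower were 1 monocyte, 1 of 9 erythroid and 2 T and NK markers. Ddx3y was near 0 in RAG2_deficient alone of the 3 femoral groups. The part of these differences, and of sex, in the changes of Odc1, Sat1 and Ccnd2 was not tested.

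In 2KO over deltaEmu, none of the 38 was called by edgeR's quasi-likelihood test, against 1.79% of all genes called higher, 1.91% lower and 3.7% in either direction. At an unadjusted p under 0.05 there were 2 (Cad and Polr1b), where 15.7% of all genes reached it, and DESeq2 called 1 (Cad). Cad had 138 and 144 CPM in 2KO and 93.8 and 79.6 CPM in deltaEmu, without overlap, a change of 0.72 ± 0.17 (adjusted p = 0.0632). It was called with no filter on low counts (adjusted p = 0.0275), with DESeq2 (0.00967), without RAG2_deficient replicate 2 (0.0122) and without RAG2_deficient replicate 3 (0.0119). It was called in no other alternative, where adjusted p ran up to 0.522. The median change of the 38 was 0.17 against -0.015 for all genes. Changes were positive for 34 of 38, against 48.3% of all genes. Without overlap 24 were higher and 2 lower, against 26.4% and 30.6% of all genes. Myc had 82.7 and 79.3 CPM in 2KO, against 78.7 and 73.1 CPM in deltaEmu, a change of 0.11 ± 0.15 (adjusted p = 0.813). Outside the 38, Smox (1.43 ± 0.25), Slc7a5 (1.25 ± 0.23) and the transferrin receptor gene Tfrc (1.39 ± 0.29) were higher in 2KO, and all 3 calls ended without 2KO replicate 3, deltaEmu replicate 5 or deltaEmu replicate 7 (adjusted p of 0.122 to 0.379). That of Tfrc also ended without immunoglobulin, mitochondrial and rRNA genes in the fit (0.0557). Tfrc is strongly expressed in erythroid precursors, and 9 of 9 erythroid markers were also called higher in 2KO, with sums of 10427 to 15424 CPM in 2KO and 2455 to 2601 CPM in deltaEmu. Neutrophil markers summed to 9013 to 10746 CPM in 2KO and 18022 to 20578 CPM in deltaEmu, and monocyte markers to 4750 to 5193 CPM in 2KO and 7313 to 8343 CPM in deltaEmu, with none of either list called. Called lower in 2KO were 4 of 12 mature B, 3 of 8 plasma cell and 1 of 8 stromal markers. The part of these differences in the changes of Smox, Slc7a5 and Tfrc was not tested.

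**Figure D4:**
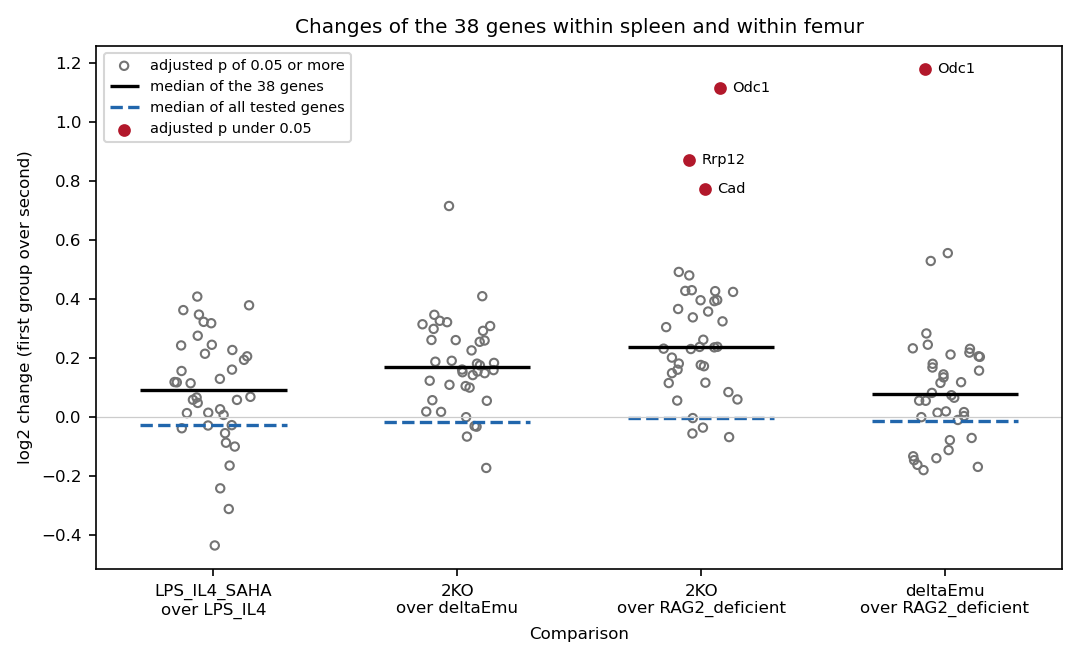
Changes of the 38 genes on the log2 scale in the SAHA comparison and in the 3 femoral comparisons, 1 point per gene, filled where the adjusted p was under 0.05. The filled points are Odc1 (1.11), Rrp12 (0.87) and Cad (0.77) in 2KO over RAG2_deficient and Odc1 (1.18) in deltaEmu over RAG2_deficient; black lines give the median of the 38 genes and dashed lines that of all tested genes.

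SAHA was compared with its absence in the activated splenic cells. None of the 38 genes was called (edgeR's quasi-likelihood test), in a comparison in which 0% of the 13913 genes tested were called; DESeq2 also called 0 genes. At an unadjusted p under 0.05 there were 0 of the 38 and 187 of all genes (1.34%). Changes ran from -0.43 (Cad) to 0.41 (Nip7) with a median of 0.09 and standard errors of 0.21 to 0.41, which is as large as most of the changes. Without overlap 10 of 38 were higher with SAHA and 0 lower, against 15.7% and 10.1% of all genes. The 10 were Imp4, Wdr12, Nop56, Ebna1bp2, Srm, Nip7, Tsr1, Bop1, Rrp1b and Nolc1. Changes were positive for 28 of the 38, against 46.7% of all genes. All 8 large-subunit factors had positive changes, 0.12 to 0.41, and none was called. In the other roles 9 of 12 small-subunit, 5 of 6 snoRNP, 3 of 6 nucleolar, 2 of 3 metabolic and 1 of 2 polymerase I genes were positive. Between the LPS_IL4 libraries, the large-subunit factors other than Rrp1b were lower in replicate 6_et_8 than in 4_et_7. Their log2 ratios ran from -0.67 (Nop16) to -0.11 (Wdr12), and that of Rrp1b was 0.03.

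Myc had 165 and 198 CPM in LPS_IL4_SAHA and 171 and 204 CPM in LPS_IL4. The groups overlapped and the change was -0.09 ± 0.23 (adjusted p = 0.952). In both groups replicate 6_et_8 was the higher one in Myc. Cad had 207 and 234 CPM in LPS_IL4_SAHA and 212 and 366 CPM in LPS_IL4. Its change was -0.43 ± 0.32 (adjusted p = 0.939), and LPS_IL4 replicate 6_et_8 lay above the other 3 libraries. Nip7 had 189 and 226 CPM in LPS_IL4_SAHA and 186 and 118 CPM in LPS_IL4, where replicate 6_et_8 was the low library. Without LPS_IL4 replicate 4_et_7, 6_et_8 stood alone for its group. The median change of the 38 was then 0.22, against -0.0030 for all genes. Without LPS_IL4 replicate 6_et_8 the median was 0.043, against 0.0099 for all genes. Of 7 tested genes reported as induced by inhibitors of histone deacetylases none was called. The titles place SAHA on the opposite samples, in which case every sign of this comparison turns round.

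The LPS_IL4 libraries differed from each other by gene length, and so did the RAG2_deficient ones. The log2 ratio of LPS_IL4 replicate 6_et_8 over 4_et_7 ranged from -1.17 to 0.79 over the 38 genes. Its Spearman correlation with summed exon length was 0.65 over the 38 genes and 0.38 over 17483 genes, a description over genes that share both libraries. The 10 shortest of the 38 (1146 to 2547 bases) had a median ratio of -0.38 and the 10 longest (5805 to 11955 bases) 0.03. In RAG2_deficient, replicate 3 over 2, the correlation was 0.59 over the 38 and 0.35 over all genes, with medians of -0.51 for the shortest and -0.04 for the longest. In LPS_IL4_SAHA (6_et_8 over 4_et_7), 2KO (3 over 1) and deltaEmu (7 over 5) it was -0.39, 0.34 and -0.37 over the 38. Short genes such as Fbl, Gar1 and Nhp2 were low in LPS_IL4 replicate 6_et_8 and RAG2_deficient replicate 3. The long genes were mixed in LPS_IL4 replicate 6_et_8. Cad (log2 ratio 0.79), Utp20 (0.59) and Polr1a (0.41) were high there, while Imp4 (-0.36), Nop58 (-0.26), Wdr12 (-0.11) and Ncl (-0.06) were not.

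**Figure D5:**
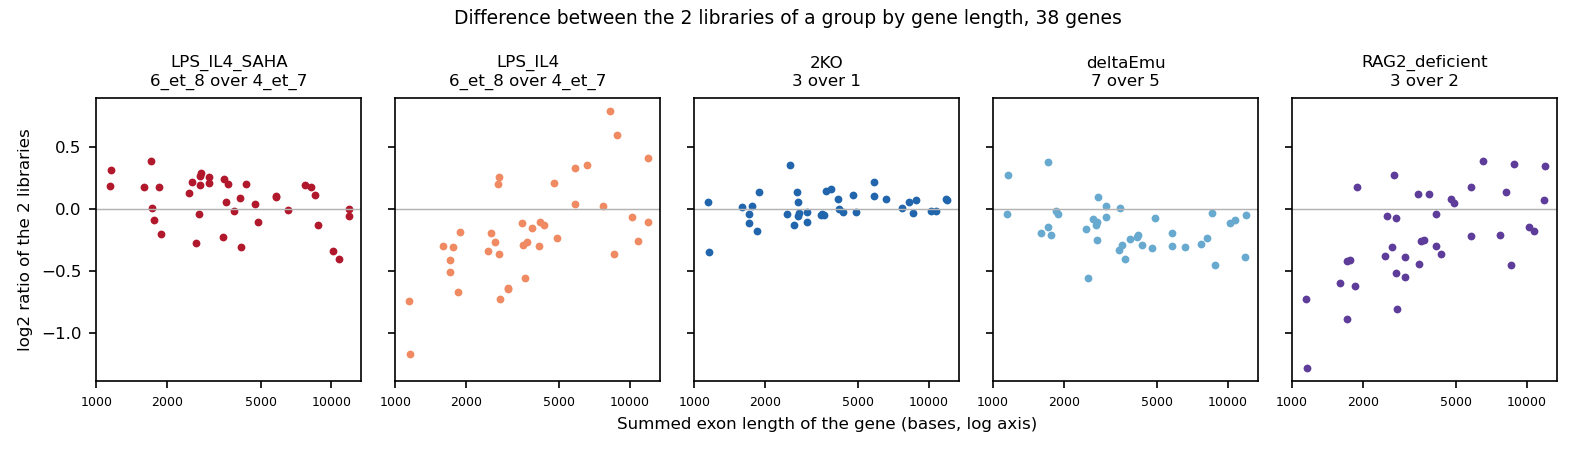
Log2 ratio of the 2 libraries of each group against the summed exon length of the gene (bases, log axis), 1 point for each of the 38 genes. The points rise from left to right in LPS_IL4 (correlation 0.65) and RAG2_deficient (0.59), from medians of -0.38 and -0.51 for the 10 shortest genes to 0.03 and -0.04 for the 10 longest, and slope weakly in the other 3 groups.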

How the data were processed

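The deposited values are raw counts per gene in a single table. The submitters' processing notes name STAR 2.4.0a for alignment, featureCounts of Subread 1.4.6-p1 for counting and mm10/GRCm38 as the build. Which annotation release and strand setting were used, and how multi-matching reads were treated, is not given in the sources used here. Libraries were stranded total RNA, per the labels' protocols. Control sequences (100 entries) stayed out of library sizes and tests.

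Genes were tested with edgeR 4.0.16 (R 4.3.3): filterByExpr with a minimum count of 10, TMM factors and the quasi-likelihood F test. P-values were adjusted by Benjamini-Hochberg across every tested gene, with calls at 0.05. Every adjusted p is from this test unless another is named. The spleen fit held 4 libraries, the femoral fit 6, and activated spleen over femoral set the mean of 2 group means against that of 3 in 1 fit of 10 libraries. The standard error is the change divided by the square root of F. CPM and TPM were computed from the deposited counts, TPM with the summed exon lengths of the table. DESeq2 1.42.0 and other scalings and filters were alternatives. Coordinates of genes are those of the deposited table. The members, gene lists and rules were chosen with earlier results of these data known. Values per library are given for Myc, for genes called within a tissue and for the 3 largest and 3 smallest changes between tissues; Fbl, Nip7 and the SAHA values of Cad were added after their values were seen. From each related list at most 2 called genes per direction, with the smallest adjusted p, are named.

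The spleen pools 4_et_7 and 6_et_8 carry the same names in both treatments, but no label states a paired design. The main fit is therefore without pairing, and a block on the pools was an alternative. The deviations of the same-named libraries from their group means correlated at -0.442 over 13913 genes. With 2 libraries per group, which also differ by gene length, this value cannot tell whether the pools were paired.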

Additional observations from a re-analysis of the deposited data

How the results depend on the processing

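In activated spleen over femoral, all 38 genes were called higher under each of the 15 alternatives. Leaving out each library in turn gave medians of 1.79 to 2.01, 38 called genes each time, and 11672 to 13438 genes called in all. Within a tissue the counts depended on single libraries. Called members ranged from 0 to 14 in 2KO over RAG2_deficient, 0 to 11 in deltaEmu over RAG2_deficient, 0 to 1 in 2KO over deltaEmu and 0 to 8 with SAHA. Over all genes the ranges were 153 to 3222, 259 to 5401, 119 to 1587 and 0 to 2670. Medians of the 38 ranged from 0.15 to 0.37, -0.03 to 0.23, 0.13 to 0.26 and 0.04 to 0.22. Where 1 library is left in a group, it is assumed to vary like the others.

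With no filter on low counts, 1971, 3308 and 1537 genes were called in 2KO over RAG2_deficient, deltaEmu over RAG2_deficient and 2KO over deltaEmu, and 145 with SAHA. DESeq2 called 1242 genes in 2KO over RAG2_deficient and 949 in 2KO over deltaEmu. In 2KO over deltaEmu 1 member, Cad, was called under either setting, and 399 genes were called in a fit without immunoglobulin, mitochondrial and rRNA genes. In 1 fit of all 10 libraries Cad was not called in 2KO over RAG2_deficient (adjusted p = 0.131). The cause of these shifts was not tested. With SAHA, the replicate block on the spleen pools gave 0 genes and 0 members, as did crossed pairing, which was added after seeing the data. The change of Myc with SAHA ranged from -0.19 to 0.074 with 1 library left out, and reversed to 0.068 without LPS_IL4_SAHA replicate 4_et_7 and 0.074 without LPS_IL4 replicate 6_et_8. Of 1117 values of single genes under alternatives, 1061 kept direction and side of the threshold, 50 lost their call, 4 gained one and 2 reversed. Most of these values belong to activated spleen over femoral, where only Mki67 lost its call, in 1 alternative. Within a tissue, each gene called in the main fit lost its call in 2 to 5 of its 11 alternatives. The femoral groups share too few replicate numbers for a paired fit.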
